A study of Mus musculus with 6 samples.

Results

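The genes described here carry glucose into, through and out of the hepatocyte, together with the insulin and glucagon signals that set its direction. They were chosen by symbol, from a list of 34 genes of gluconeogenesis, glycogen metabolism, hormone signalling and glycolysis, and 32 of the 34 were found among the 19505 genes read by the arrays. Pfkfb1 and Eno1 were not analysed here. No member had more than 1 row of values, and no filter on low values was applied, so all 32 entered every comparison.

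The data are 6 Clariom S mouse arrays (single-colour Affymetrix expression arrays), 1 for each liver. All animals were male, 8 weeks old and of C57BL/6 background. The WT group holds 3 livers, from animals 38, 40 and 31 (replicates 1 to 3), and the HMGB2-KO group, in which the gene for the chromatin protein HMGB2 is knocked out, holds 3, from animals 39, 41 and 32 (replicates 1 to 3). No treatment or surgery is named for them, and the sources used here do not give the allele, any cell type it is limited to, the feeding state or the hour of collection. The study asks which genes go with HMGB2 expression in liver.

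In the fed liver, insulin acts through its receptor (Insr) and the adaptors Irs1 and Irs2 to keep the transcription factors Foxo1 and Foxo3 out of the nucleus, and glucose is stored as glycogen or broken down by glycolysis. In fasting, glucagon acts through Gcgr and cyclic AMP, glycogen is degraded, and FOXO1, CREB and the coactivator PGC-1alpha (Ppargc1a) raise the genes of gluconeogenesis, among them Pck1 and G6pc. Many of these genes also follow the circadian clock in liver, so their transcripts vary over the day as well as with meals.

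The promoters of 6 members are shown because their regulation is the textbook case of these signals, or because their values set livers apart below. Each line is the 200 bases upstream of the annotated start, 5′ to 3′ in the sense of the gene, from RefSeq, build GRCm38.p6. Capitals mark matches on either strand to CAAAACA, an insulin response and forkhead-type sequence that reads TGTTTTG on the other strand, to TGACG, the core of the cyclic AMP response element that reads CGTCA on the other strand, and to the E-box CACGTG, which clock and carbohydrate-response factors can bind.
G6pc: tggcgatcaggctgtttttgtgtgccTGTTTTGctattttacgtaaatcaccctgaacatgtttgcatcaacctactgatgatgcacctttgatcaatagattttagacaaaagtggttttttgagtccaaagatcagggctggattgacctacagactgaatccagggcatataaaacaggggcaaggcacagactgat
Igfbp1: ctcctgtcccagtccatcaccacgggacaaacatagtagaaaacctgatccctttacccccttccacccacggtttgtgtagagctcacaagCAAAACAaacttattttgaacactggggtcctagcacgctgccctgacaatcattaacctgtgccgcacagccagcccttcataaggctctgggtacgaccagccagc
Irs2: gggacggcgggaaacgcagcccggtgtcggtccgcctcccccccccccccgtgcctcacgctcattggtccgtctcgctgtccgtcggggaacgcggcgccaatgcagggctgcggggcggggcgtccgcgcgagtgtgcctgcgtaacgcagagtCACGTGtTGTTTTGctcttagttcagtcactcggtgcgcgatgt
Irs1: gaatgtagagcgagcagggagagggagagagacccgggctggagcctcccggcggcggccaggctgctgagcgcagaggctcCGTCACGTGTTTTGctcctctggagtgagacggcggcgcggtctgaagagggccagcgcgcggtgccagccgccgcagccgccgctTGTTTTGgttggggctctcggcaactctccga
Pck1: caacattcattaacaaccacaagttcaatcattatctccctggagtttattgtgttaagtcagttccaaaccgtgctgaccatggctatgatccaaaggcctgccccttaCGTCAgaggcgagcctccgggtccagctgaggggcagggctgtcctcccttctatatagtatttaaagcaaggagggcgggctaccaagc
Ppp1r3c: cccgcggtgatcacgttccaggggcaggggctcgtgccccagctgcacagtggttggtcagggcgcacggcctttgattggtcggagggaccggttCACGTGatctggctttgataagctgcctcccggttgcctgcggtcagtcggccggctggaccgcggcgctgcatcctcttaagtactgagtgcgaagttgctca

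The printed stretches are chr11:101367516-101367715 on the plus strand for G6pc, chr11:7197587-7197786 on the plus strand for Igfbp1, chr8:11008930-11009129 on the minus strand for Irs2, chr1:82291440-82291639 on the minus strand for Irs1, chr2:173152873-173153072 on the plus strand for Pck1 and chr19:36736605-36736804 on the minus strand for Ppp1r3c. In G6pc the match TGTTTTG begins 174 bases before the start, and in Igfbp1 CAAAACA begins 108 bases before it. Irs2 holds CACGTG 44 bases and TGTTTTG 37 bases before its start. In Irs1, 118 bases upstream, CGTCA runs into the E-box CACGTG and that into a match of TGTTTTG, so the 3 overlap, and the last occurs again at 32. Pck1 holds CGTCA at 90 and Ppp1r3c CACGTG at 104. Of 29 members with a promoter in the table, CAAAACA was found within 250 bases upstream in 6 (20.7%), TGACG in 10 (34.5%) and CACGTG in 8 (27.6%), against 6.38%, 19.8% and 6.86% of 27025 genes. The longer element TGACGTCA, which contains TGACG, was found in 1 member, Ldha (3.45%, against 1.77%). The forkhead-type TGTTTAC was found in 0 members, against 3.54% of genes. A gene was counted if any of its promoter windows held a match, and some, such as Slc37a4, Pfkfb3 and Ldha, have more than 1. The 27025 genes are all those with a promoter window and are not limited to the genes on the arrays. A match describes these letters only and shows no binding, and these shares were not tested.

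Every value below is a log2 difference from a baseline of the gene's own row, after the array was centred on its median. The sources used here do not name the baseline, so livers can be compared for a gene but genes cannot be compared by level. Of the members, 12 lay above their baseline in all 6 livers and 3 below it in all 6. The labels held for the targeted gene: Hmgb2 averaged 0.42 ± 0.05 in the WT livers and -0.47 ± 0.17 in the knockouts (SD, n = 3 each). Its log2 fold change was -0.89 (unadjusted p = 0.000183, adjusted p = 0.645 in limma), so Hmgb2 itself did not pass the adjusted threshold of 0.05. The array of WT replicate 2 stood apart, with a median of 0.26 as deposited against -0.05 to 0.01 on the other 5, and 132 rows more than 2 log2 below every other array, against 4 to 33. Its 1414 rows of olfactory and vomeronasal receptor genes had a median of 0.54 as deposited, against -0.11 to 0.01 on the other 5. The shift of this array thus differed between sets of rows, and centring on 1 median does not remove such a difference. WT replicate 2 held the lowest value of the 6 livers for 8 of 32 members (background 22.3%), among them Irs2, Gcgr, Pgam1 and Fbp1. It held the highest for 5 (background 21.8%). Without it, Irs2 had an unadjusted p of 0.0621 and Ppargc1a one of 0.0367 between genotypes in limma, and no member passed adjustment. The labelled tissue could not be checked by level, but 9 hepatocyte markers had a list median between -0.21 (WT replicate 2) and 0.05 by liver. In RNA of whole liver, fewer cells of a type and less RNA per cell cannot be told apart.

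Between genotypes, 0 of the 32 members passed the adjusted threshold of 0.05 in limma (smallest adjusted p = 0.994), and 0 of 19505 genes did (background 0%). At an unadjusted p under 0.05 there was 1 member, Irs2, where 3.68% of all genes had such a p, and with a 1.5-fold difference as well there were 0 (background 0.759%). The 3 HMGB2-KO livers lay above all 3 WT livers for 4 members, Irs2, Pygl, Gcgr and Pgam1 (12.5%, background 4.32%), and below all of them for 0 (background 5.35%). With the values as deposited, 1 member lay wholly above (Irs2, 3.12%, against 0.795% of all genes) and 1 wholly below (Irs1, 3.12%, against 10.6%). With quantile normalization 6 lay wholly above (18.8%, against 4.98%), the same 4 with Fbp1 and Pfkl, and 0 below (against 4.83%). The members' median log2 fold change was 0.11, with 25 of 32 above 0, against -0.00 and 49.5% over all genes. Without centring of the arrays every log2 fold change is lower by 0.12, and 16 of 32 members lie above 0, against 4485 of 19505 genes. The members' median is then -0.0065, against -0.12 over all genes. The members' median was 0.04, with 19 above 0, when animal 31 was left out, and 0.17 when animal 32 was. The 95% intervals of the members reached between 0.26 and 1.86 log2 to either side, with a median of 0.43, and 31 of 32 held 0.

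**Figure D1:**
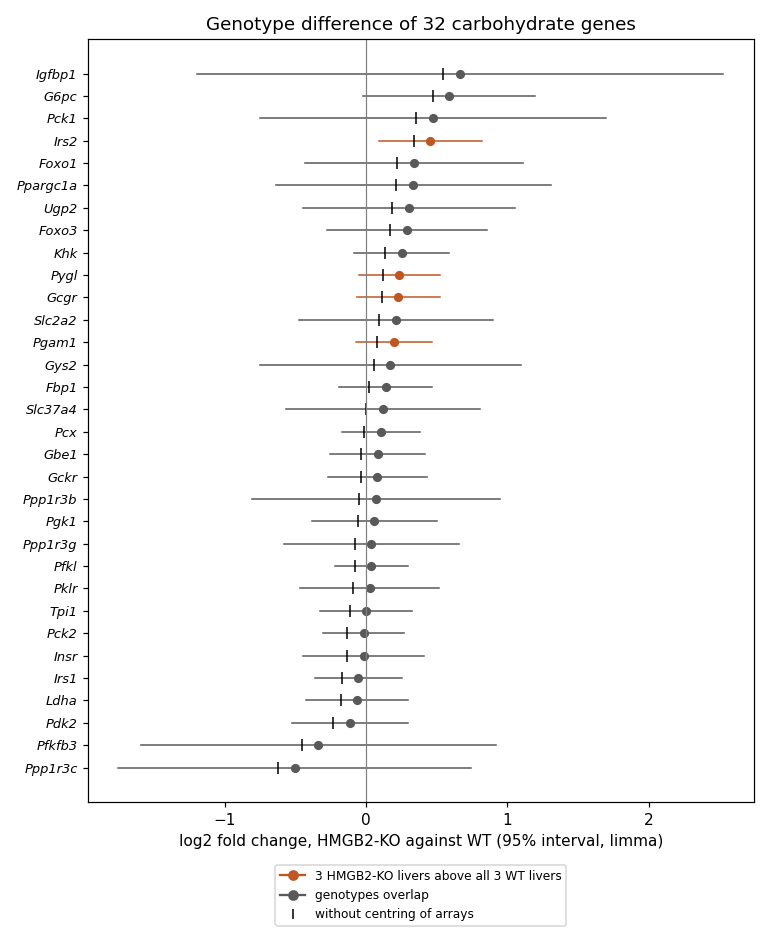
Log2 fold change of the 32 measured members, HMGB2-KO against WT (horizontal axis), with 95% limma intervals from 3 livers per genotype; black ticks are the estimates without centring of the arrays, each lower by 0.12. Irs2 is the member whose interval lies above 0, and orange marks the 4 members whose HMGB2-KO livers all lie above the WT livers.

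Among the genes of gluconeogenesis, G6pc had the largest log2 fold change. It encodes the catalytic subunit of glucose-6-phosphatase, which releases free glucose from the hepatocyte. G6pc was at 0.80, 0.18 and 0.20 in WT replicates 1 to 3 and at 1.5, 0.75 and 0.70 in HMGB2-KO replicates 1 to 3. WT replicates 2 and 3 lay below all HMGB2-KO livers, and WT replicate 1 lay among them. Its log2 fold change was 0.59 (95% interval -0.02 to 1.20, unadjusted p = 0.0558, adjusted p = 0.994 in limma), a 1.5-fold difference, and 0.33 without HMGB2-KO replicate 1.

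Pck1, the cytosolic PEP carboxykinase that commits oxaloacetate to gluconeogenesis, varied more within genotypes than between them. It was at 0.97, 0.88 and -1.01 in WT, and 0.93, 1.16 and 0.19 in the HMGB2-KO livers, in the same order of replicates. The livers numbered 3 were the lowest of both groups, and the other 4 lay within 0.88 and 1.16. Its log2 fold change of 0.47 (SE 0.53) was -0.17 without WT replicate 3. Ppargc1a, the coactivator of fasting gene expression, was at -0.35, 0.92 and -0.51 in WT, and 0.81, 0.53 and -0.27 in the HMGB2-KO livers, so the groups overlapped (0.33, SE 0.42). Its log2 fold change ran from 0.07 to 0.78 with 1 liver left out, the highest being without WT replicate 2. Slc37a4, the transporter that brings glucose-6-phosphate to G6pc in the endoplasmic reticulum, was at 1.64, 2.00 and 0.92 in WT, and 1.79, 1.90 and 1.23 in the HMGB2-KO livers, with a log2 fold change of 0.12 (SE 0.30), or 0.00 without centring. Again the livers numbered 3 were lowest in each genotype.

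The remaining genes of gluconeogenesis varied less across the livers. The mitochondrial carboxykinase Pck2 (-0.02, SE 0.12), pyruvate carboxylase Pcx (0.10, SE 0.12) and the fructose bisphosphatase Fbp1 (0.14, SE 0.14) had log2 fold changes within about their error of 0, and that of Pcx was -0.01 without centring. For Fbp1 the 5 other livers spanned 0.03 to 0.07 and WT replicate 2 was at -0.33, so that its log2 fold change was 0.01 without that liver.

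Of the glycogen genes, Pygl had HMGB2-KO livers wholly above the WT livers. Pygl encodes liver glycogen phosphorylase, which releases glucose units from glycogen. It was at 0.29, 0.42 and 0.56 in WT, and 0.67, 0.69 and 0.62 in the HMGB2-KO livers. The HMGB2-KO livers lay close together (SD 0.04) and the highest WT liver was 0.06 below the lowest of them. The log2 fold change was 0.24 (SE 0.12, 95% interval -0.05 to 0.52, unadjusted p = 0.0943, adjusted p = 0.994 in limma), or 0.12 without centring, where the groups overlap.

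Gys2, the liver glycogen synthase, was at 0.61, 1.31 and 0.29 in WT, and 1.30, 1.39 and 0.05 in the HMGB2-KO livers, with a log2 fold change of 0.17 (SE 0.40), or 0.46 without WT replicate 2 and -0.05 without WT replicate 3. Ugp2, which makes the UDP-glucose that glycogen synthase uses, was at 0.90, 0.83 and 0.03 in WT, and 1.34, 1.04 and 0.29 in the HMGB2-KO livers (0.30, SE 0.32, and 0.03 to 0.60 with 1 liver left out). In both genes the livers numbered 3 were the lowest of all 6. The branching enzyme gene Gbe1 showed no such order, with 0.28 to 0.45 in WT and 0.19 to 0.57 in HMGB2-KO (0.08, SE 0.15, or -0.04 without centring).

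The regulatory subunits that bring protein phosphatase 1 to glycogen, and so favour its synthesis, differed among themselves. Ppp1r3b was at 0.57, 0.38 and 1.28 in WT, and 0.26, 0.55 and 1.63 in the HMGB2-KO livers (0.07, SE 0.38, or -0.05 without centring). Its livers numbered 3 were the highest, opposite to Gys2. Ppp1r3c was at 0.78, 1.03 and 1.07 in WT, and -0.07, -0.43 and 1.88 in the HMGB2-KO livers (-0.50, SE 0.54, and from -1.21 without HMGB2-KO replicate 3 to -0.06 without HMGB2-KO replicate 2). Its WT livers lay close together while the HMGB2-KO livers held the highest and the 2 lowest values of all 6. Ppp1r3g, at 0.14, 0.13 and -0.61 in WT, and 0.22, -0.51 and 0.07 in the HMGB2-KO livers (0.04, SE 0.27, or -0.08 without centring), followed neither pattern.

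Irs2, the insulin receptor substrate that carries much of the signal in fasted and refed liver and is itself raised by FOXO, had the smallest p of the members. It was at -0.55, -0.85 and -0.54 in WT, and 0.01, -0.40 and -0.19 in the HMGB2-KO livers. The highest WT liver lay 0.15 below the lowest HMGB2-KO liver, and the groups also stayed apart as deposited and with quantile normalization. The log2 fold change was 0.46 (SE 0.16, 95% interval 0.09 to 0.82, unadjusted p = 0.0202, adjusted p = 0.994 in limma), a 1.37-fold difference, and lay between 0.36 and 0.56 with any 1 liver left out. Without centring it was 0.34 with an unadjusted p of 0.0569, and that p was 0.0621 without WT replicate 2 and 0.0713 without HMGB2-KO replicate 1 in limma. It was 0.50 within animals 38 to 41 and 0.36 between animals 32 and 31. The related Irs1 was at -0.06, -0.22 and 0.00 in WT, and -0.14, -0.28 and -0.01 in the HMGB2-KO livers (-0.05, SE 0.13), and the groups overlapped.

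Gcgr, the glucagon receptor, also had HMGB2-KO livers wholly above WT, at 0.16, 0.25 and 0.14 against 0.09, -0.19 and -0.05. The lowest HMGB2-KO liver and the highest WT liver were 0.05 apart, and the log2 fold change was 0.23 (SE 0.13, 95% interval -0.06 to 0.52, unadjusted p = 0.106, adjusted p = 0.994 in limma), or 0.11 without centring, where the groups overlap. Insr, the insulin receptor, was at 0.49, 0.43 and 0.17 in WT, and 0.63, 0.40 and 0.02 in the HMGB2-KO livers (-0.02, SE 0.18, or 0.02 with quantile normalization). Its lowest livers were those numbered 3, and the genotypes overlapped over most of their range.

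Foxo1, the factor that insulin restrains, was at -0.11, 0.49 and -0.64 in WT, and 0.13, 0.78 and -0.16 in the HMGB2-KO livers (0.34, SE 0.33, and 0.06 without WT replicate 3 to 0.63 without WT replicate 2). Foxo3 was at 0.16, 0.59 and -0.13 in WT, and 0.67, 0.74 and 0.06 in the HMGB2-KO livers (0.29, SE 0.24, and 0.12 to 0.50 with 1 liver left out). In each of these genes and each genotype the order was replicate 2 highest and the liver numbered 3 lowest. Igfbp1, a secreted binding protein for insulin-like growth factors that insulin lowers through FOXO, had the widest spread of all members. Its values were -0.09, 0.75 and -2.11 in WT, and 1.5, -0.14 and -0.82 in the HMGB2-KO livers, a range of 3.61 log2. The log2 fold change was 0.67 (SE 0.80, 95% interval -1.20 to 2.53), and -0.15 without WT replicate 3.

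The genes of glycolysis, fructose use and glucose entry had the smallest median log2 fold change of the 4 roles, at 0.04, or -0.08 without centring, with 8 of 11 above 0. Pgam1, a phosphoglycerate mutase, was at -0.15, -0.24 and -0.08 in WT, and 0.02, 0.01 and 0.09 in the HMGB2-KO livers, and its groups did not overlap (0.20, SE 0.12, unadjusted p = 0.130, adjusted p = 0.994 in limma; 0.08 without centring, where they overlap). Khk, the kinase that traps fructose, had a like difference with overlap, at 0.44 to 0.79 in WT and 0.75 to 1.02 in HMGB2-KO (0.25, SE 0.14). Pklr, the liver pyruvate kinase that carbohydrate feeding raises, was at 0.97, 0.74 and 1.23 in WT, and 1.42, 0.86 and 0.75 in the HMGB2-KO livers (0.03, SE 0.21, or -0.09 without centring). Its genotypes overlapped over nearly their whole range.

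Slc2a2, which encodes the hepatic glucose transporter GLUT2, was at 0.92, 1.35 and 0.49 in WT, and 1.38, 1.45 and 0.57 in the HMGB2-KO livers (0.21, SE 0.29), with the livers numbered 3 lowest. Pfkfb3, an isoform of the bifunctional enzyme that sets fructose 2,6-bisphosphate, was at 0.63, 2.09 and 0.90 in WT, and 1.40, 1.49 and -0.27 in the HMGB2-KO livers (-0.34, SE 0.54, or 0.11 without WT replicate 2). Its highest liver was WT replicate 2 and its lowest HMGB2-KO replicate 3. The glucokinase regulator Gckr (0.08), phosphofructokinase Pfkl (0.04), triose phosphate isomerase Tpi1 (0.00) and phosphoglycerate kinase Pgk1 (0.06) had log2 fold changes below their standard errors of 0.11 to 0.19, and all 4 lay below 0 without centring. Lactate dehydrogenase Ldha (-0.06, SE 0.16) and Pdk2, a kinase that inactivates pyruvate dehydrogenase (-0.11, SE 0.18), also differed by less than their standard errors. Pgam1, Tpi1, Pgk1 and Ldha have processed copies elsewhere in the genome, and the sources used here do not say whether the probes separate them.

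**Figure D2:**
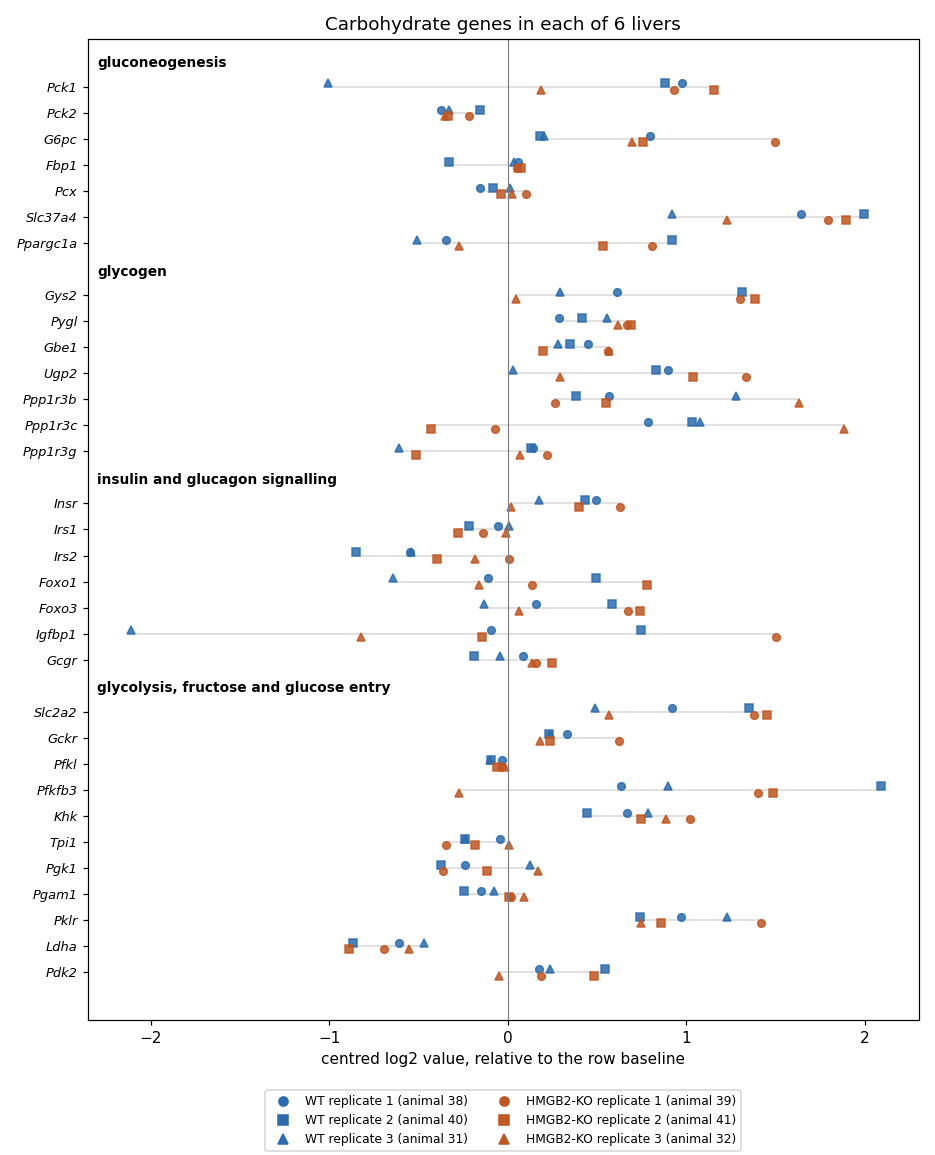
Centred log2 value of each measured member (horizontal axis, relative to the row baseline) in the 6 livers, grouped by role; blue is WT, orange HMGB2-KO, and triangles are the livers numbered 3. The triangles sit at the left end for Pck1, Slc37a4, Gys2, Ugp2, Slc2a2 and Igfbp1 and at the right end for Ppp1r3b.

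Among the other genes of these pathways, 105 of 115 listed were measured and 0 passed the adjusted threshold. At an unadjusted p under 0.05 there were 2 of 105 higher in HMGB2-KO (background 1.06%) and 1 of 105 lower (background 2.61%). In all 3 the genotypes did not overlap. The HMGB2-KO livers lay wholly above WT for 7 of the 105 (background 4.32%) and wholly below for 2 (background 5.35%). Grb10, an adaptor that restrains the insulin receptor, was at -0.57, -0.20 and -0.08 in WT, and 0.04, 0.16 and 0.04 in the HMGB2-KO livers (0.36, SE 0.15, unadjusted p = 0.0487, adjusted p = 0.994 in limma). Ptpn1, the phosphatase PTP1B that dephosphorylates the insulin receptor, was at -0.41, -0.72 and -0.49 in WT, and -0.32, -0.23 and -0.08 in the HMGB2-KO livers (0.33, SE 0.14, unadjusted p = 0.0473, adjusted p = 0.994 in limma). Phkg2, the catalytic subunit of the kinase that activates liver phosphorylase, was at 0.56, 0.57 and 0.48 in WT, and 0.06, 0.46 and 0.03 in the HMGB2-KO livers (-0.36, SE 0.15, unadjusted p = 0.0455, adjusted p = 0.994 in limma). Without centring the unadjusted p in limma was 0.215 for Grb10 (0.24), 0.168 for Ptpn1 (0.21) and 0.0292 for Phkg2 (-0.48). With 1 liver left out the log2 fold change ran from 0.22 to 0.46 for Grb10, 0.24 to 0.39 for Ptpn1 and -0.49 to -0.28 for Phkg2. The log2 fold change was above 0 for 8 of 16 other glycolysis genes, 20 of 25 of gluconeogenesis and its regulators, 9 of 21 of glycogen, 7 of 11 of pyruvate entry, 12 of 20 of insulin signalling and 9 of 12 of carbohydrate sensing, fructose and pentose phosphate. That is 65 of 105 in all, or 30 of 105 without centring, against 9664 and 4485 of all 19505 genes.

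The difference by animal number was larger in size than that by genotype for 21 of 32 members, not far from the 56.1% of all genes. A contrast of 2 against 4 livers has a larger error than that of 3 against 3, which by itself favours this order. Within-genotype spread was wide: the members' median SD was 0.26 log2 against 0.19 over all genes, and 13 of 32 (40.6%) lay above the 90th percentile of all genes. Of these 13, 5 were glycogen genes and 4 genes of gluconeogenesis. The livers of animals 31 and 32, both numbered 3, lay below all 4 livers of animals 38 to 41 for 9 members (28.1%, background 9.32%). These were Pck1, Slc37a4, Gys2, Ugp2, Insr, Foxo1, Foxo3, Igfbp1 and Slc2a2, and the same 9 held without centring (against 14.1% of all genes) and with quantile normalization (against 9.03%). The 2 livers lay above the 4 others for 5 members (15.6%, background 10.4%), namely Ppp1r3b, Ppp1r3c, Irs1, Pgk1 and Ldha, of which Ppp1r3b and Pgk1 held without centring (6.25%, against 4.67% of all genes). What the animal number stands for is not given in the labels, and this contrast was chosen after values had been seen.

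With genotype kept in the model, animals 31 and 32 were compared with 38 to 41 in limma, and 0 members passed the adjusted threshold (smallest adjusted p = 0.129), where 8 of all genes did (background 0.041%). At an unadjusted p under 0.05 there were 14 members (43.8%), 11 lower (background 4.59%) and 3 higher (background 3.9%), against 8.49% of all genes in either direction. The lower ones include Igfbp1, at -1.97 (SE 0.49, adjusted p = 0.345 in limma) or 3.91-fold lower, and Pck1, at -1.4 (SE 0.25, adjusted p = 0.161) or 2.63-fold lower. They also include Gys2 (-0.98, SE 0.24), Ugp2 (-0.86, SE 0.14), Slc37a4 (-0.76, SE 0.16) and Slc2a2 (-0.75, SE 0.16). The other 5, Ppargc1a, Insr, Foxo1, Foxo3 and Pfkfb3, lay between -1.09 (Pfkfb3) and -0.39 (Insr). That of Pfkfb3 ran from -1.72 to -0.47 and that of Ppargc1a from -1.15 to -0.61 with 1 liver left out. The higher ones were Ppp1r3b at 1.02 (SE 0.17, adjusted p = 0.129 in limma) or 2.02-fold, Ppp1r3c at 1.15 (SE 0.41) and Pgk1 at 0.42 (SE 0.14). The value of Ppp1r3c rests on animal 32: the difference was 2.14 within HMGB2-KO and 0.17 within WT. The count of lower members was 7 without WT replicate 3 and 5 without HMGB2-KO replicate 3, each of which leaves 1 liver on that side. The 8 genes past the adjusted threshold became 1 when animal 31 was left out and 1 when animal 32 was, 3 when animal 39 was, and 0 with no moderation of the variances.

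**Figure D3:**
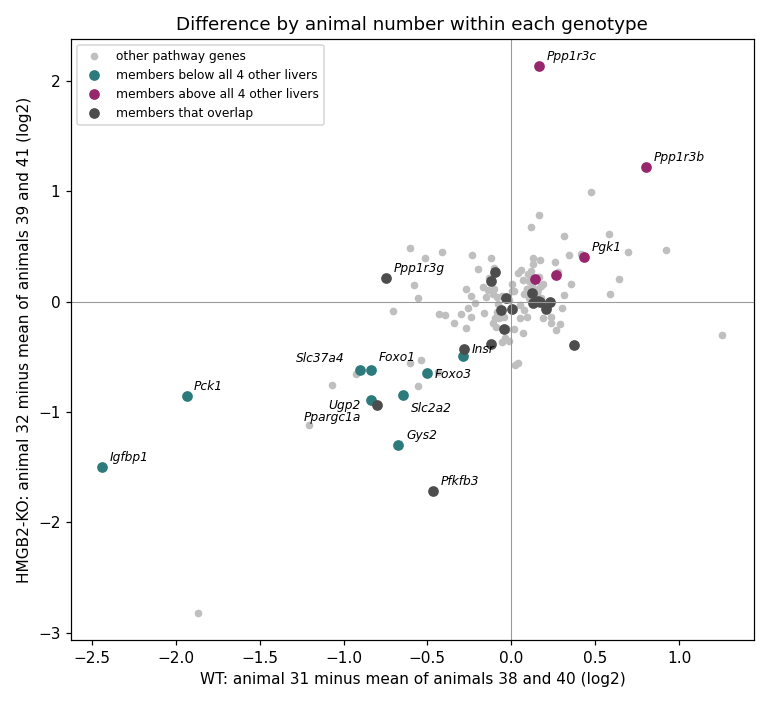
Difference of the liver numbered 3 from the mean of the other 2 livers of its genotype, in WT (horizontal axis) and HMGB2-KO (vertical axis), in log2; grey points are 105 other pathway genes. The 9 teal members, lower in animals 31 and 32 than in all 4 others, lie in the lower left, down to -2.44 in WT and -1.5 in HMGB2-KO for Igfbp1.

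The sign of the difference was the same in WT and HMGB2-KO for 23 of 32 members (71.9%, against 57.7% of all genes), 15 lower and 8 higher in the livers numbered 3. For Pck1 it was -1.94 in WT and -0.86 in HMGB2-KO, and for Ugp2 -0.83 and -0.89. For the members whose genotypes did not overlap it was 0.21 and -0.06 (Pygl), 0.01 and -0.07 (Gcgr), 0.16 and 0.01 (Irs2) and 0.12 and 0.08 (Pgam1). Absence of overlap limits the spread within each genotype, so small values here follow in part from how these members were picked. With the animal number in the model, Irs2 and G6pc had an unadjusted p under 0.05 between genotypes, and 0 members passed after adjustment. The share of all genes at that p in this model was not counted.

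Clock genes and genes that fasting raises also differed by animal number. Past the adjusted threshold in limma were 3 clock genes (Nr1d1, Nr1d2 and Npas2) and 1 fasting gene (Angptl4), against 0.041% of all genes. The part of clock and fasting in the members' differences was not tested. Of 14 clock genes, 8 lay lower (57.1%, background 9.32%) and 4 higher (28.6%, background 10.4%) in animals 31 and 32 than in all 4 other livers. Nr1d1, the clock repressor REV-ERBalpha, was at 3.27, 3.03 and -1.57 in WT, and 2.88, 2.91 and -1.52 in the HMGB2-KO livers, 23.6-fold lower in animals 31 and 32 (adjusted p = 0.000271 in limma). Npas2, a clock activator, was at -1.33, -1.14 and 0.54 in WT, and -1.40, -1.37 and 0.49 in the HMGB2-KO livers, 3.54-fold higher in animals 31 and 32 (adjusted p = 0.0109 in limma). Of 10 measured genes that fasting raises, 6 lay lower (60%, background 9.32%) and 1 higher (10%, background 10.4%). Among them Angptl4, an inhibitor of lipoprotein lipase, was at 1.42, 1.56 and -1.76 in WT, and 1.78, 2.29 and -0.75 in the HMGB2-KO livers (adjusted p = 0.00775 in limma). Pdk4, the fasting-induced kinase of pyruvate dehydrogenase, was the 1 that lay higher. Of 10 measured genes that feeding raises, 1 lay lower (Elovl6) and 1 higher (Fasn). These shares of 10% each are near those of all genes (9.32% and 10.4%).

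**Figure D4:**
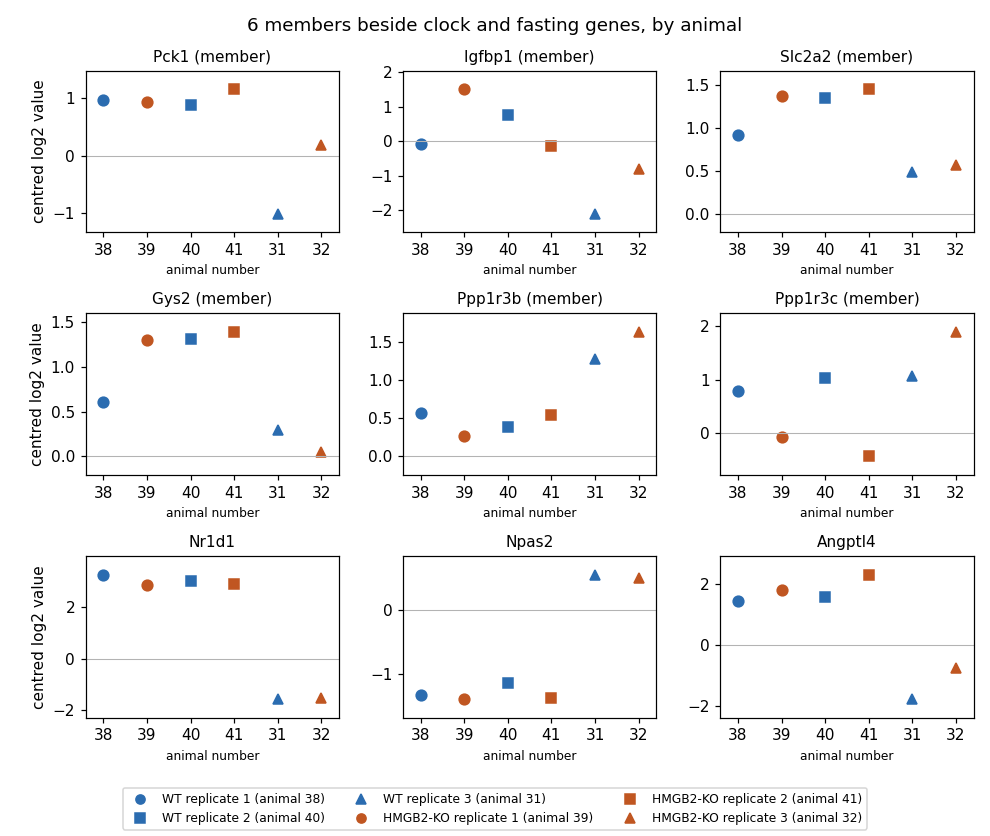
Centred log2 values of 6 members and of the clock genes Nr1d1 and Npas2 and the fasting gene Angptl4, by animal number, each panel with its own vertical scale. Animals 31 and 32 are low for Pck1, Igfbp1, Slc2a2, Gys2, Nr1d1 and Angptl4 and high for Ppp1r3b, Ppp1r3c and Npas2.

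By list median, markers of other cell types differed little between the genotypes, and most for macrophages. Of 9 macrophage markers, 9 had a log2 fold change above 0 (median 0.18), against 49.5% of all genes. Without centring 7 of the 9 lay above 0 (median 0.07), against 4485 of 19505 genes. The macrophage list median was 0.26, 0.27 and 0.40 in WT, and 0.51, 0.41 and 0.60 in the HMGB2-KO livers. The median log2 fold change was 0.06 for 9 hepatocyte, 0.07 for 6 endothelial, 0.04 for 7 stellate cell, 0.12 for 5 lymphocyte, -0.11 for 4 neutrophil, -0.05 for 5 cholangiocyte and -0.15 for 2 erythroid markers. It was 0.07 for 4 pancreatic acinar, -0.01 for 5 skeletal muscle and -0.12 for 4 adipocyte markers. Each of the positive medians but the macrophage one lay below 0 without centring. The endothelial list was mixed in direction. Of its 6 markers, 4 had a log2 fold change above 0 and 2 below it, from -0.03 to 0.63, and without centring 2 lay above 0. The endothelial marker Pecam1 had an unadjusted p of 0.00416 (0.55, SE 0.14, adjusted p = 0.994 in limma). The part of macrophage or endothelial RNA in the values of Irs2, Pygl, Gcgr, Pgam1, Grb10 and Ptpn1 was not tested.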

How the data were processed

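Liver RNA of 3 WT and 3 HMGB2-KO mice was read on 1 array each. The deposited table holds 22206 rows, from -8.60 to 6.93, on a scale read as log2. The sources used here do not give the log base, probe summarization, normalization or row baseline. In 24.2% of rows a pair of livers held opposite values (tolerance 1e-06), and the row median of the 6 livers was 0 in 8.33%. The platform annotation names 19572 rows by 1 gene symbol each, 0 by several, and leaves 2634 unnamed. Where a gene had more than 1 row (55 genes), the one of highest mean was kept. All 6 columns were used.

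Arrays were centred on their medians, and genotypes compared with limma 3.58.1 in R 4.3.3 (two-sided, Benjamini-Hochberg adjustment over 19505 genes, threshold 0.05). The labels give each liver its own animal number and no litter or day. An exact permutation test of 3 against 3 livers cannot go below p = 0.1, so none was used. On simulated data for this comparison with 19505 genes, 20 runs and 200 changed genes, the test recovered 56.9% of 2-fold and 91.2% of 4-fold changes, with 4.70% of calls false. The simulated noise was independent between genes and livers, with no effect shared by an array or a set of animals. The changed genes were drawn at random from all genes, and the members' median SD was wider (0.26 against 0.19). These rates are therefore not those of the members on these arrays.

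The members, lists and tests were chosen with earlier results of these data known. Values by liver are given for members whose genotypes do not overlap, those with unadjusted p under 0.05, the widest of each role and 12 textbook steps, and, chosen after their values were seen, for Slc37a4, Ugp2, Ppp1r3b, Ppp1r3g, Foxo3 and Slc2a2. Other pathway genes are named at unadjusted p under 0.05 without overlap of the genotypes. The comparison by animal number, its model term and its interaction with genotype were added after the data were seen. Alternatives were the values as deposited, quantile normalization, the mean of a gene's rows, the replicate block, animals 38 to 41 alone, no moderation, and leaving out each liver.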

Additional observations from a re-analysis of the deposited data

Results flagged for a closer look

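For Ppp1r3c the genotype difference had opposite signs in the 2 sets of animals. HMGB2-KO minus WT was -1.16 in animals 38 to 41, where both HMGB2-KO livers lay below both WT livers, and 0.81 between animals 32 and 31. The interaction of genotype with animal number, fitted in limma, was 1.97 (SE 0.35, unadjusted p = 0.00161, adjusted p = 1.00), and 0 of 19505 genes had a called interaction, with 618 at an unadjusted p under 0.05. The second set holds 1 liver per genotype, and Ppp1r3c was flagged from these same values. Opposite signs were not particular to Ppp1r3c. Other members had them too, among them Gys2 (0.38 in animals 38 to 41 and -0.24 between animals 32 and 31), Pfkfb3 (0.08 and -1.17), Pklr (0.28 and -0.48) and Ppp1r3g (-0.28 and 0.68).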

How the results depend on the processing

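Under every alternative tried, 0 members passed the adjusted threshold in limma, in the genotype comparison and in that by animal number. Of the 32 members, 12 kept the direction of their genotype difference under the 9 alternatives that can change it (no centring, quantile normalization, animals 38 to 41 and each liver left out). The other alternatives change the error and not the difference. The share of all genes that kept their direction was not counted. Without centring, the members' median log2 fold change was -0.0065 and 16 lay above 0, against -0.12 and 4485 of 19505 over all genes. Leaving out 1 liver at a time gave medians of 0.04 to 0.17 and 19 to 26 members above 0. The count of members at an unadjusted p under 0.05 was 0 without centring, 2 with the animal-number term, 3 without moderation and 0 to 3 with 1 liver left out. The share of all genes at that p was counted for the main fit only (3.68%), so these counts have no background beside them. Over all genes, 148 had a 1.5-fold difference at an unadjusted p under 0.05, against 290 without centring, 378 in animals 38 to 41, 63 without moderation and 158 to 331 with 1 liver left out.

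Livers of the same replicate number deviated together only in part (correlations of 0.04, 0.13 and 0.29 for numbers 1 to 3), so the numbers were not taken as pairs. With the replicate block, 3 members (G6pc, Irs2 and Foxo1) had an unadjusted p under 0.05 and 0 passed adjustment in limma. The share of all genes at that p with the block was not counted. The block leaves the differences themselves as they were by construction.

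By animal number, 22 genes passed with quantile normalization, 0 without moderation and 1 to 12 with 1 liver left out. The lower members at an unadjusted p under 0.05 were 7 without moderation and 5 to 11 with 1 liver left out, and the higher ones 1 without centring and 1 to 3. The share of all genes at an unadjusted p under 0.05 was counted for the main fit of this contrast only. Only 2 livers, 1 of each genotype, stand on 1 side of it.

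The log2 fold change between genotypes turned its sign without centring for Pcx (-0.014), Gbe1 (-0.037), Ppp1r3b (-0.047), Ppp1r3g (-0.080), Gckr (-0.039), Pfkl (-0.081), Tpi1 (-0.12), Pgk1 (-0.060) and Pklr (-0.092). It did so with quantile normalization for Pck2 (0.0047), Insr (0.022) and Pklr (-0.017), and in animals 38 to 41 for Gbe1 (-0.021), Ppp1r3b (-0.068), Ppp1r3g (-0.28), Insr (0.052), Pfkfb3 (0.081) and Tpi1 (-0.12). With 1 liver left out it ran from -0.17 to 0.82 for Pck1, -0.060 to 0.049 for Pck2, -0.18 to 0.36 for Slc37a4, -0.065 to 0.61 for Gys2, -0.34 to 0.35 for Ppp1r3b, -0.21 to 0.26 for Ppp1r3g, -0.16 to 0.15 for Insr, -0.12 to 0.016 for Irs1 and -0.15 to 1.28 for Igfbp1. It ran from -0.0033 to 0.49 for Slc2a2, -0.058 to 0.16 for Gckr, -0.64 to 0.24 for Pfkfb3, -0.088 to 0.088 for Tpi1, -0.077 to 0.20 for Pgk1, -0.18 to 0.16 for Pklr, -0.17 to 0.029 for Ldha and -0.25 to 0.016 for Pdk2. The turns without centring follow from the shift of -0.12 that all genes share. The cause of the other changes was not tested. Signal over background is not analysed here, and 3 livers per genotype limit the precision.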
